A study of Mus musculus with 12 samples.

Results

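The 38 genes described here encode nucleolar proteins and ribosome biogenesis factors, together with a few growth enzymes, that are widely listed as targets of the transcription factor Myc. They were chosen by gene symbol from a list of 41 names, 3 of which are older aliases, and all 38 were found among the 23174 rows of each of the 2 deposited expression tables. The study profiled T-ALL (T-cell acute lymphoblastic leukaemia) of C57BL/6 mice by poly-A-selected, strand-specific RNA sequencing with 50-base single reads, 12 samples in all. Its question was how the receptor Cxcr4 and its ligand Cxcl12 act in this leukaemia. Every sample carried Notch1-deltaE, a truncated Notch1 allele that drives the disease. In the ex vivo experiment, cells taken from spleen received AMD3100, a small-molecule Cxcr4 antagonist, in 3 samples, or vehicle in 3 samples. These cells had been kept on a feeder layer of OP9 mouse stromal cells treated with mitomycin C, in medium with IL-7 at 5 ng/ml. In the tumour experiment, 3 primary tumours were Cxcr4-/- (KO, numbered 5, 7 and 8) and 3 were Cxcr4+/+ (WT, numbered 1, 2 and 4). The labels attach the same culture description to the tumour samples, which they title primary tumours, and whether these were cultured before sequencing is not stated. The labels do not state the dose and duration of AMD3100, the age of the animals, the way Notch1-deltaE was introduced or the Cre or promoter behind the Cxcr4 deletion. They also do not say whether samples of 1 group came from separate animals or cultures, so the p-values below describe the scatter of these samples alone, and that scatter may be technical.

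Ribosomes are built in the nucleolus. RNA polymerase I transcribes a long precursor there, small nucleolar RNA-protein complexes (snoRNPs) modify it, the small-subunit processome and the large-subunit assembly factors fold and cut it, and the exosome trims what is left. Myc binds the promoters of many of these factors, often at the E-box CACGTG, and leukaemia cells driven by Notch1 depend on Myc for growth. Ornithine decarboxylase (Odc1) and nucleolin (Ncl) are among the long-known Myc targets.

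The E-box was searched for in RefSeq promoter windows (build GRCm38.p6), which span 250 bases before to 50 bases after a gene's start. Windows were available for 31 of the 38 genes. CACGTG, which reads the same on both strands, stood in the windows of 11 of these 31 genes (35.5%), against 8.91% of 17491 protein-coding genes and 8.09% of all 27025 genes with a window. The variant CACGCG, searched on both strands, stood in 10 of the 31 (32.3%), against 13.7% of protein-coding genes. The 3 windows printed here belong to the genes with full values below whose promoters held CACGTG, and capitals mark that motif. They are Nme1 (chr11:93968223-93968522, minus strand), where the motif began at position -18 from the start and both of the 2 annotated windows held it, Eif5a (chr11:69921337-69921636, minus strand), where it began at -74 and 3 of 6 windows held it, and Eif4a1 (chr11:69672374-69672673, minus strand), where it began at -189 in the only window.
Nme1: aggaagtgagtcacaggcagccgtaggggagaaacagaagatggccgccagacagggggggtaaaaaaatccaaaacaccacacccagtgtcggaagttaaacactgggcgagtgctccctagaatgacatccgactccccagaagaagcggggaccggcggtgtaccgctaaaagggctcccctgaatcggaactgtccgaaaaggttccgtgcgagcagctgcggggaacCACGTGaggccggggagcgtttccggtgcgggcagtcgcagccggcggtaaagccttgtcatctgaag
Eif5a: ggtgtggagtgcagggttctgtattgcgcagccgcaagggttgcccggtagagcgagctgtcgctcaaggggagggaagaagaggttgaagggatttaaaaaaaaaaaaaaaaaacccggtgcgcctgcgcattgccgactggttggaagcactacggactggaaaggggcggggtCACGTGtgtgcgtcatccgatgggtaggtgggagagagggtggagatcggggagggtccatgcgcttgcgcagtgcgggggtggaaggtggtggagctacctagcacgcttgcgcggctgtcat
Eif4a1: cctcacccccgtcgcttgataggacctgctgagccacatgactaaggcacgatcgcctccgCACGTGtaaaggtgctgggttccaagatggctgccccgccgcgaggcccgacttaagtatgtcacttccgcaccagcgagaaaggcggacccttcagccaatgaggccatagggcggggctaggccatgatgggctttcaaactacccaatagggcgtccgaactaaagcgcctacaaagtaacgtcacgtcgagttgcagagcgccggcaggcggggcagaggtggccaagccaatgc
With AMD3100, the 11 genes with CACGTG had a median log2 difference of -0.26 ex vivo, with 2 called lower. The 20 without it had a median of -0.38, with 7 called lower. Of all 10245 genes kept ex vivo, 9.92% were called lower. No test was run on this split, and a match describes letters in a fixed window only.

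Expression is given as FPKM, a read density per kilobase of transcript scaled to the size of the library. Differences are between values of log2(FPKM + 1), on which low genes appear to change less than they do. All 38 genes passed the filter of a mean of at least 1 FPKM in both tables. They were well expressed: ex vivo, their median level of 51.5 FPKM lay above that of 82% of the 10245 genes kept, and in the tumours their median of 28.7 FPKM lay above that of 71% of 10741. Eif5a was the highest in both tables, at a mean of 753 FPKM ex vivo and 360 FPKM in the tumours. Pa2g4, Npm1, Ncl and Nop58 followed ex vivo, at means of 300, 253, 232 and 224 FPKM, and Ncl, Pa2g4 and Npm1 in the tumours, at 153, 117 and 90 FPKM. Fbl was the lowest in both, at 3.83 and 1.91 FPKM. The Fbl transcript shares 70.4% of its 50-base windows with other annotated genes, mostly the locus Gm5812, and the same share was 65.3% for Eif4a1, 62.7% for Ddx18, 54.5% for Nme2, 42.2% for Odc1, 40.9% for Npm1, 37.6% for Nop56, 33.6% for Mrto4, 22.0% for Pes1 and 11.9% for Nme1. How the authors assigned reads that match several genes is not stated, so the levels of these 10 genes are uncertain. Between samples, the genes moved less ex vivo than in the tumours, with a median range over 6 samples of 0.57 log2 units ex vivo (0.66 for all genes kept) and 1.22 in the tumours (1.51 for all).

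The 8 T cell markers examined were above 0 in all 12 samples. Ex vivo they summed to 3796, 3959 and 3240 FPKM with AMD3100, against 4515, 4328 and 3894 FPKM with vehicle, and the AMD3100 value was the lower one in each pair. Of the 8, 7 lay below 0 (49.7% of all genes did), at a median log2 difference of -0.23 over the 8, and Cd3e lay above (0.24). Only Cd3g passed the test (-0.46, limma adjusted p = 0.0251), a count near the 9.92% of all genes called lower. Haemoglobin transcripts made up 20.4, 2.76 and 6.55% of the summed FPKM in KO tumours 5, 7 and 8, against 1.29, 5.48 and 23% in WT tumours 1, 2 and 4, and at most 0.000139% ex vivo. WT tumour 2 also stood out for neutrophil markers, which summed to 3106 FPKM there and to between 5.57 and 318 FPKM in the other tumours. The OP9 layer is of mouse origin, so its RNA is counted with that of the leukaemia cells. All 8 stromal markers were above 0 in every ex vivo sample, but Col3a1 and Vcam1 reached only 0.315 and 0.288 FPKM, below the filter. The 8 summed to 176, 205 and 25.2 FPKM with AMD3100 against 159, 199 and 15.1 FPKM with vehicle. Pdgfrb, at 4.20 to 186 FPKM, carried most of these sums outside pair 3. The other 7 markers summed to 31.4, 18.5 and 14.0 FPKM with AMD3100, against 23.5, 39.1 and 10.9 FPKM with vehicle. In the tumours 4 of these 8 (Cxcl12, Col1a2, Col3a1 and Sparc) were listed at 0 throughout. These are bulk samples, in which fewer cells of a type and less RNA per cell cannot be told apart.

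With AMD3100, ribosome biogenesis genes were mostly lower than with vehicle. Of the 38 genes, 10 fell (Wdr74, Pa2g4, Nip7, Srm, Dkc1, Nop16, Nme1, Nop58, Imp4 and Gnl3), 1 rose (Tcof1) and 27 were not called at an adjusted p under 0.05 in the limma fit that compares same-numbered samples. Over all 10245 genes the same fit called 19.9%, with 9.92% lower and 9.96% higher. At an unadjusted p under 0.05, 24 of the 38 were lower and 1 higher, against 19.4% lower and 19.6% higher among all genes. The sign was more uniform than the calls: 35 of the 38 (92.1%) lay below 0, against 49.7% of all genes, and the exceptions were Tcof1, Rrp12 and Eif4a1. The median log2 difference was -0.29, against 0.0022 over all genes, with a range of -0.68 to 0.31. Summed over the 38 genes, expression was 3471, 3403 and 2995 FPKM in AMD3100 samples 1 to 3, against 4088, 3893 and 4149 FPKM in vehicle samples 1 to 3, so the groups did not overlap. As a share of all FPKM, the sum was 0.743, 0.765 and 0.661% with AMD3100, against 0.881, 0.874 and 0.864% with vehicle. The T cell marker sum was likewise lower with AMD3100 in all 3 pairs, as given above, and its part in this result was not tested.

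**Figure D1:**
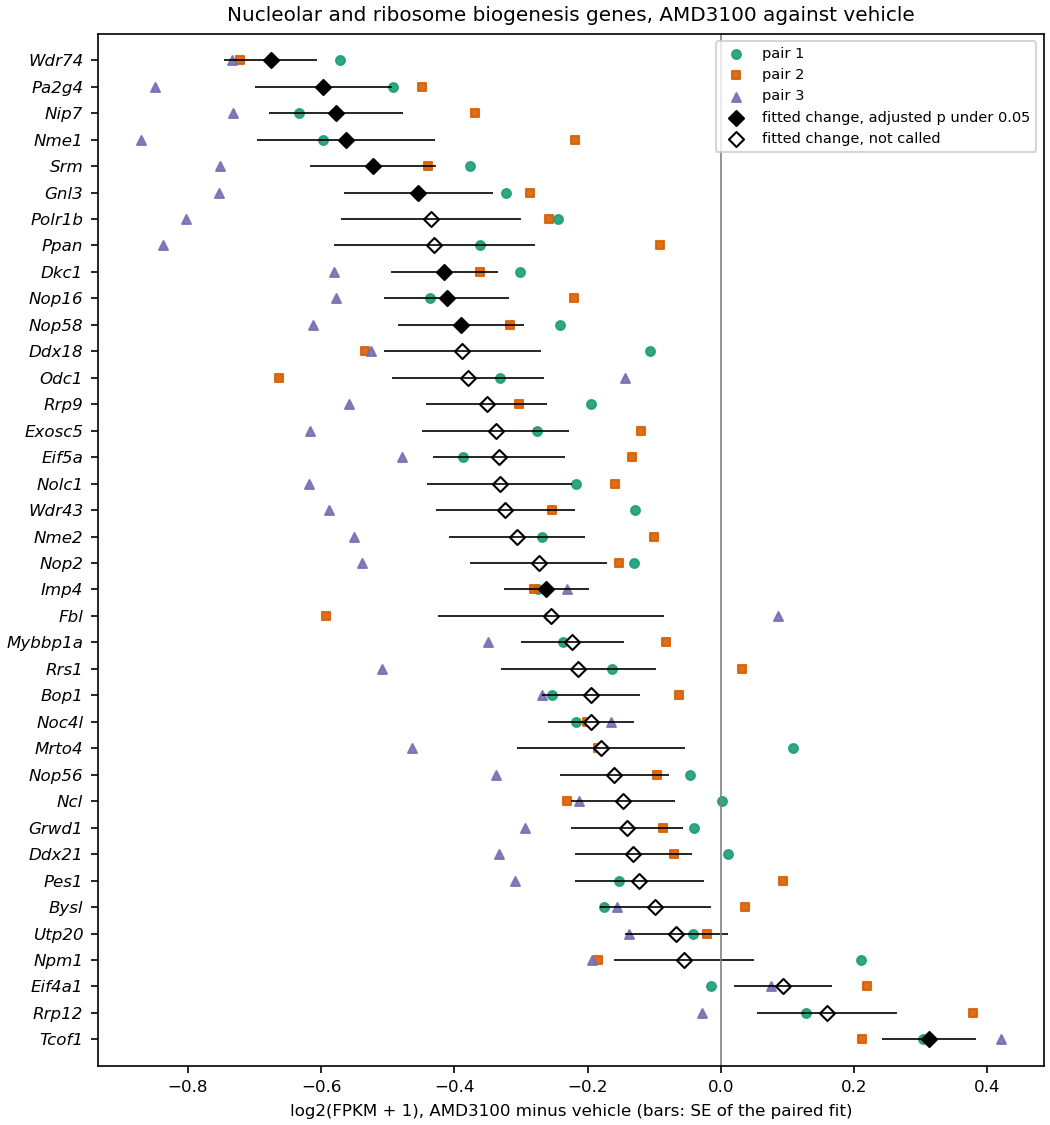
Log2 difference in FPKM + 1 (AMD3100 minus vehicle) for each of the 38 genes, in the order of the fitted difference. Coloured marks are the 3 same-numbered pairs, diamonds the fitted difference (filled where called) and bars its SE. Of the 38 fitted differences 35 lie below 0, Wdr74 is the lowest at -0.68 and Tcof1 the highest at 0.31.

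The calls depend on pairing. The labels give both groups the numbers 1 to 3 without saying that a number marks a shared culture, and samples of the same number deviated together from their group means (r = 0.467, 0.579 and 0.619 over genes). Without the replicate block, none of the 38 was called, the smallest limma adjusted p was 0.0544 (Wdr74), and 13 genes in all (0.127%) were called. Leaving out pair 1 or pair 2 gave 0 lower and 0 higher calls among the 38, and leaving out pair 3 gave 2 lower and 0 higher, each fit resting on 2 pairs. Counted without a model, the values of 21 genes were lower in every AMD3100 sample than in any vehicle sample (15.8% of all genes did this) and 1 gene, Tcof1, was higher in this way (13.1% of all genes). With 3 samples a group and their numbers ignored, the smallest p that exact permutation allows is 0.1. Permutation within the 3 pairs allows no p as small as that.

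Pair 3 showed the widest difference. The median over the 38 genes was -0.23 in pair 1, -0.18 in pair 2 and -0.49 in pair 3 (SD over pairs 0.17), and 27 of the 38 (71.1%) were lower in all 3 pairs, against 29.4% of all genes. AMD3100 sample 3 held the lowest of the 6 values for 25 of the 38 genes, and vehicle sample 3 the highest for 18. Myc measured 177, 206 and 116 FPKM in AMD3100 samples 1 to 3, against 203, 215 and 213 FPKM in vehicle samples 1 to 3 (log2 difference -0.38, SE 0.17, limma adjusted p = 0.172), which did not pass the test. Its lowest value was also in AMD3100 sample 3, its highest was in vehicle sample 2, and the groups overlapped. Cxcr4, the receptor that AMD3100 blocks, measured 183, 136 and 212 FPKM with AMD3100, against 183, 112 and 141 FPKM with vehicle (0.29, SE 0.12, limma adjusted p = 0.154). The stromal marker sum was lowest in pair 3, with and without Pdgfrb, and its part in the result was not tested.

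**Figure D2:**
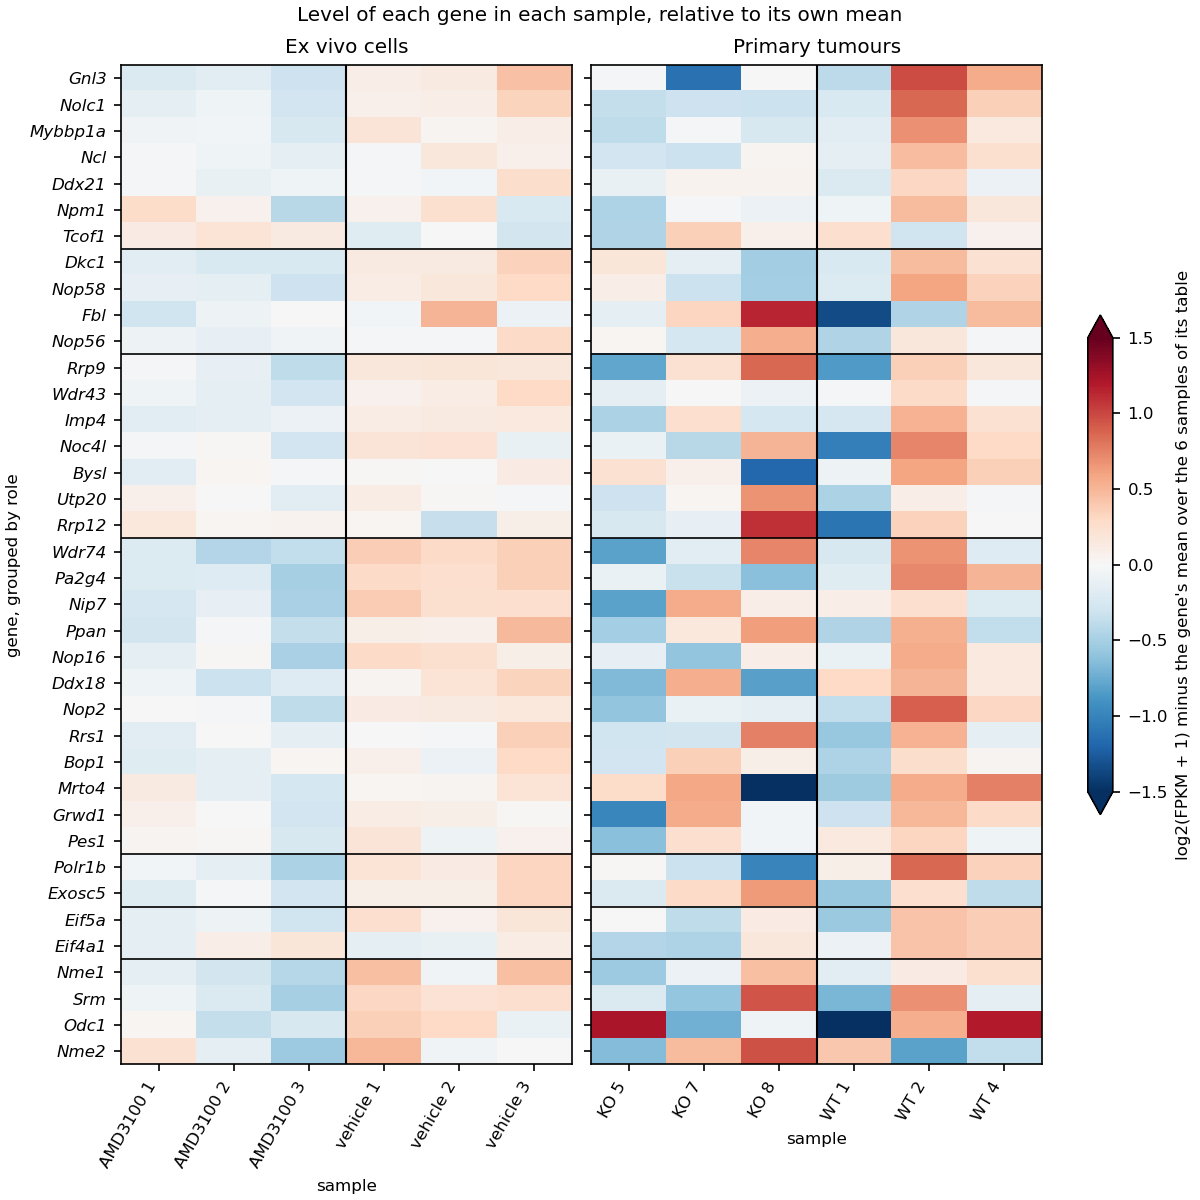
Log2(FPKM + 1) of the 38 genes in every sample, each row as the difference from its own mean within its table (ex vivo on the left, tumours on the right), with colours ending at -1.5 and 1.5. AMD3100 sample 3 is the lowest for 25 genes ex vivo and WT tumour 2 the highest for 19 genes among the tumours.

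Of the 12 large-subunit assembly factors, 4 fell with AMD3100 (9.92% of all genes did) and none rose. All 12 lay below 0 (49.7% of all genes did), at a median of -0.33. Wdr74, a nucleolar WD-repeat protein that acts with the ATPase Nvl in releasing assembly factors, measured 39.2, 33.1 and 34.8 FPKM in AMD3100 samples, against 58.7, 55.2 and 58.5 FPKM in vehicle samples (log2 difference -0.68, SE 0.070, limma adjusted p = 0.0191). This was the largest difference among the 38, with means of 35.7 ± 3.16 FPKM for AMD3100 and 57.5 ± 1.97 FPKM for vehicle (SD, n = 3 each). Pa2g4 (Ebp1), a growth-related protein that binds ribosomes and pre-ribosomes, measured 254, 255 and 207 FPKM with AMD3100, against 358, 348 and 375 FPKM with vehicle (-0.60, SE 0.10, limma adjusted p = 0.0252). Its lowest value was in AMD3100 sample 3. Nip7, needed for processing of the precursor, measured 13.2, 14.4 and 11.1 FPKM with AMD3100, against 21, 18.9 and 19 FPKM with vehicle (-0.58, SE 0.10, limma adjusted p = 0.0261). Nop16, a nucleolar assembly factor, measured 23.7, 26.7 and 18.5 FPKM with AMD3100, against 32.5, 31.3 and 28.1 FPKM with vehicle (-0.41, SE 0.093, limma adjusted p = 0.0410). In all 4 genes every AMD3100 sample lay below every vehicle sample (15.8% of all genes did this). The other 8 (Pes1 and Bop1 of the PeBoW complex, Ppan, Mrto4, Nop2, Rrs1, Grwd1 and Ddx18) lay between -0.43 for Ppan and -0.12 for Pes1 and did not pass the test, Ddx18 coming nearest at an adjusted p of 0.0767 by limma.

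Of the 4 snoRNP core proteins, Dkc1 and Nop58 fell (9.92% of all genes did), and Nop56 and Fbl did not pass the test. Dkc1 (dyskerin) is the pseudouridine synthase of box H/ACA snoRNPs, and it measured 72.8, 69.8 and 69.4 FPKM with AMD3100, against 90.0, 90.0 and 104 FPKM with vehicle (log2 difference -0.41, SE 0.080, limma adjusted p = 0.0305). Nop58, a scaffold of box C/D snoRNPs, measured 202, 199.6 and 178 FPKM with AMD3100, against 239, 248.8 and 273 FPKM with vehicle (-0.39, SE 0.095, limma adjusted p = 0.0469). Both separated the groups without overlap (15.8% of all genes lay lower in this way). Its paralogue and partner Nop56 measured 96.2, 93.2 and 97.8 FPKM with AMD3100, against 99.4, 99.8 and 124 FPKM with vehicle (-0.16, SE 0.082, limma adjusted p = 0.213), so the groups did not overlap but vehicle samples 1 and 2 lay close to the AMD3100 samples. Fbl (fibrillarin), the methyltransferase of the same particles, measured 2.88, 3.50 and 3.74 FPKM with AMD3100, against 3.64, 5.78 and 3.47 FPKM with vehicle (-0.25, SE 0.17, limma adjusted p = 0.317), and its groups overlapped. The median of the 4 was -0.32, and -0.18 after the correction for transcript length. Under that correction Dkc1 was still called and Nop58 was not (limma adjusted p = 0.1065).

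Of the 7 abundant nucleolar proteins 1 fell and 1 rose, near the 9.92% and 9.96% of all genes. Their median was -0.15, and -0.30 after the correction for transcript length. Tcof1 (treacle), which promotes transcription of ribosomal RNA genes and is mutated in Treacher Collins syndrome, measured 104, 110.3 and 105 FPKM with AMD3100, against 83.8, 95.1 and 78.3 FPKM with vehicle (log2 difference 0.31, SE 0.070, limma adjusted p = 0.0407). It was the only gene of the 38 called higher, a call lost under both corrections for length. Gnl3 (nucleostemin), a nucleolar GTPase, measured 71.5, 74.7 and 67.0 FPKM with AMD3100, against 89.6, 91.3 and 114 FPKM with vehicle (-0.45, SE 0.11, limma adjusted p = 0.0483). Vehicle sample 3 was the highest of its 6 values. Ncl measured 229, 222 and 210.2 FPKM with AMD3100, against 228, 261 and 244 FPKM with vehicle (-0.15, SE 0.078, limma adjusted p = 0.226), with pair 1 level. Npm1 (nucleophosmin), a histone chaperone that takes part in ribosome export, measured 302, 260.0 and 186 FPKM with AMD3100, against 261, 296 and 213 FPKM with vehicle (-0.056, SE 0.10, limma adjusted p = 0.727). Nolc1 (Nopp140), a chaperone of snoRNPs, measured 79.4, 84.0 and 71.8 FPKM with AMD3100, against 92.4, 94.0 and 111 FPKM with vehicle (-0.33, SE 0.11, limma adjusted p = 0.0892). Nolc1 separated the groups (15.8% of all genes lay lower in this way), whereas Ncl and Npm1 overlapped. Of the remaining pair, Ddx21, an RNA helicase, lay at -0.13 and Mybbp1a at -0.22, and neither passed the test.

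In the small-subunit processome 1 of 7 fell, near the 9.92% of all genes, at a median of -0.19. This was Imp4, a U3 snoRNP-associated protein, which averaged 33.8 ± 0.921 FPKM with AMD3100 and 40.7 ± 0.457 FPKM with vehicle (SD, n = 3 each). Its log2 difference was -0.26 (SE 0.064, limma adjusted p = 0.0477), and the 3 pairs gave -0.28, -0.28 and -0.23, the smallest difference among the genes that passed. Rrp9, another U3 protein, lay just outside the threshold at -0.35 (limma adjusted p = 0.0548). Wdr43, Noc4l, Bysl and Utp20 lay between -0.32 and -0.067, and Rrp12 at 0.16, and none passed. Of the polymerase and exosome members, Polr1b, a core subunit of RNA polymerase I, measured 19.8, 18.5 and 14.4 FPKM with AMD3100, against 23.6, 22.3 and 25.8 FPKM with vehicle (-0.44, SE 0.14, limma adjusted p = 0.0808). Exosc5, a ring subunit of the exosome, lay at -0.34 (limma adjusted p = 0.0890). Both separated the groups (15.8% of all genes lay lower in this way) without passing the test.

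Of the 4 growth enzymes, 2 fell (9.92% of all genes did), at a median of -0.45. Srm, spermidine synthase, measured 74.6, 66.7 and 54.7 FPKM with AMD3100, against 97.2, 90.7 and 92.8 FPKM with vehicle (log2 difference -0.52, SE 0.094, limma adjusted p = 0.0275). Nme1, a nucleoside diphosphate kinase and the first of the E-box promoters printed above, measured 149, 137 and 123 FPKM with AMD3100, against 226, 159 and 226 FPKM with vehicle (-0.56, SE 0.13, limma adjusted p = 0.0448). Neither gene's groups overlapped (15.8% of all genes lay lower in this way). Pair 2 of Nme1 differed by only -0.22, against -0.60 and -0.87 in pairs 1 and 3. Odc1, the rate-limiting enzyme of polyamine synthesis, measured 46.2, 34.9 and 38.1 FPKM with AMD3100, against 58.3, 55.9 and 42.2 FPKM with vehicle (-0.38, SE 0.11, limma adjusted p = 0.0746). Nme2, the paralogue next to Nme1, measured 139, 107 and 80.8 FPKM with AMD3100, against 168, 114 and 119 FPKM with vehicle (-0.31, SE 0.10, limma adjusted p = 0.0917). In both of these the groups overlapped. Eif5a, the translation factor whose hypusine residue is made from spermidine, measured 683, 709.9 and 608 FPKM with AMD3100, against 893, 779 and 848 FPKM with vehicle (-0.33, SE 0.099, limma adjusted p = 0.0741), with no overlap but above the threshold. Eif4a1, the helicase that unwinds mRNA leaders, measured 79.0, 94.1 and 99.6 FPKM with AMD3100, against 79.8, 80.7 and 94.4 FPKM with vehicle (0.093, SE 0.073, limma adjusted p = 0.392).

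**Figure D3:**
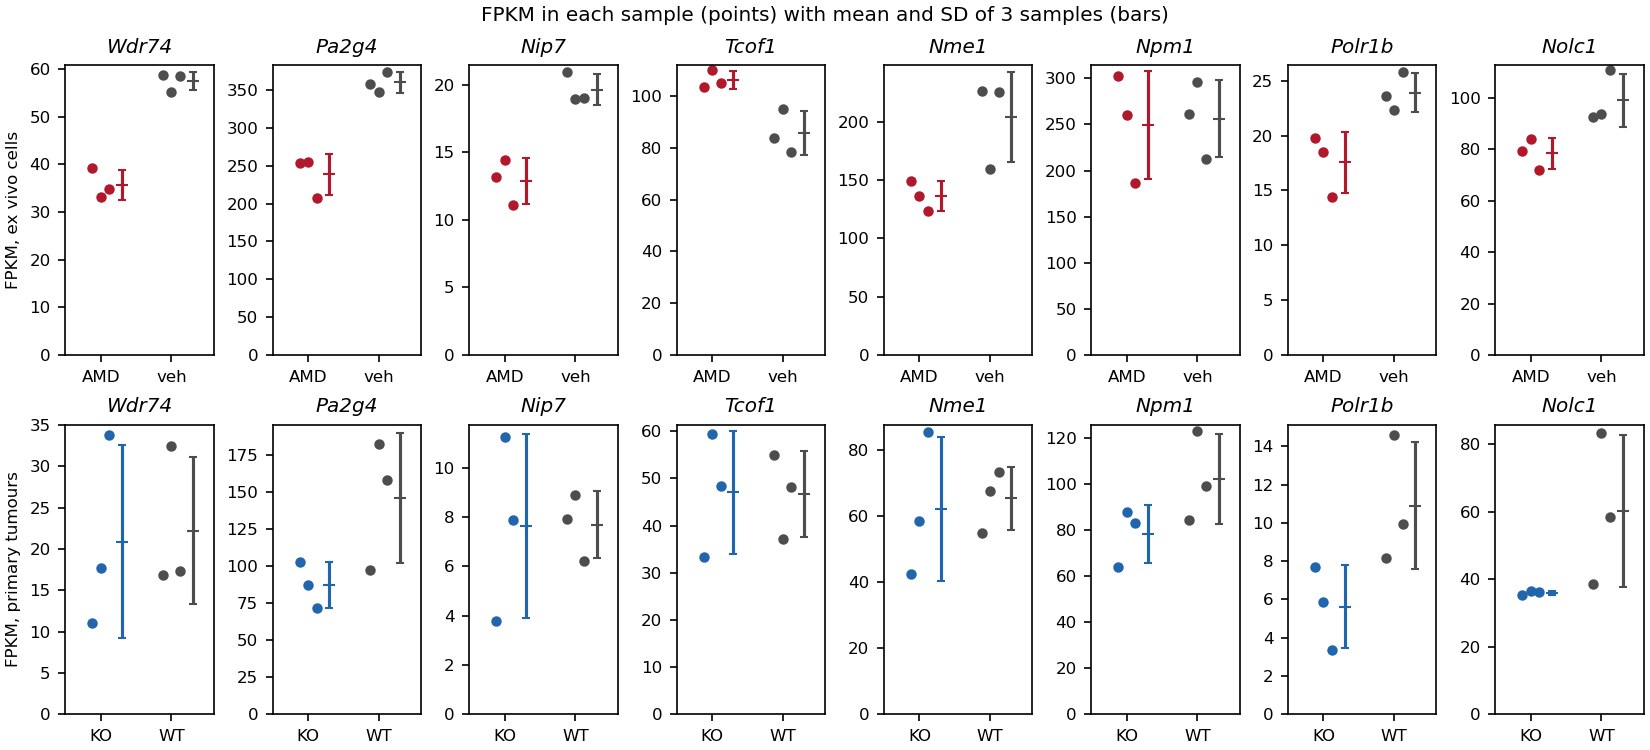
FPKM per sample of selected genes, with AMD3100 left of vehicle and KO left of WT; points are samples, horizontal marks group means and vertical bars the SD of 3 samples. Wdr74 and Pa2g4 do not overlap between AMD3100 and vehicle (15.8% of all genes lie lower in this way). Their KO and WT tumours do overlap.

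Other ribosome biogenesis genes were also mostly lower with AMD3100. Of a wider list of 127 further factors, 126 were kept; 30 of these fell (9.92% of all genes did) and none rose (9.96%). In all 101 (80.2%) lay below 0, against 49.7% of all genes, and the median was -0.22. By machinery, 14 of 46 large-subunit factors, 6 of 47 small-subunit factors, 5 of 9 snoRNP proteins, 4 of 11 exosome subunits and 1 of 13 RNA polymerase I genes fell; the counts of the small-subunit and polymerase genes were near the share of all genes. As for the 38 genes, none was called without the replicate block, and 0 to 4 were called when a pair was left out. The 5 with the smallest p were Rrp15, Utp11l, Nhp2, Exosc7 and Exosc8. Rrp15, a large-subunit factor, measured 30.0, 30.7 and 27.7 FPKM with AMD3100, against 46.4, 46.7 and 47.0 FPKM with vehicle (-0.65, SE 0.070, limma adjusted p = 0.0193). Nhp2, which partners Dkc1 in box H/ACA particles, measured 133, 126 and 121 FPKM with AMD3100, against 186, 183 and 199 FPKM with vehicle (-0.57, limma adjusted p = 0.0197). Utp11l lay at -0.54 (limma adjusted p = 0.0197), and the exosome subunits Exosc7 and Exosc8 at -0.57 and -0.63 (limma adjusted p = 0.0203 and 0.0210). Of the proteins of the ribosome itself, 4 of 69 cytosolic ones fell and 3 rose, at a median of -0.042, both counts below the shares of all genes (9.92% and 9.96%). Of 72 mitochondrial ones 28 fell and none rose, at a median of -0.30 (-0.20 after the correction for transcript length). Of the mitochondrial ones 70 (97.2%) lay below 0, against 92.1% of the 38 genes and 56.5% of the cytosolic ones. In all 3 pairs 57 mitochondrial ones (79.2%) were lower, against 71.1% of the 38 genes. The uniform sign was thus not particular to the 38 genes. Neither list had a call without the replicate block, and the difference between them was not tested.

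**Figure D4:**
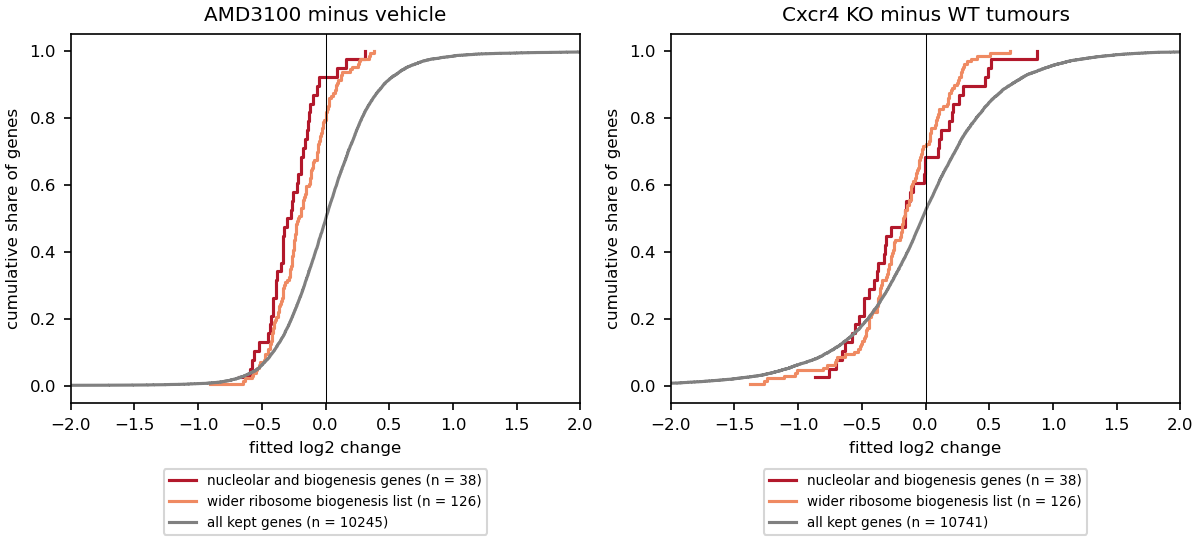
Cumulative share of genes (vertical axis) against the log2 difference, AMD3100 minus vehicle on the left and KO minus WT on the right, for the 38 genes, the wider ribosome biogenesis list and all genes kept. The medians, in that order, are -0.29, -0.22 and 0.0022 on the left and -0.16, -0.17 and -0.026 on the right.

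Differences ex vivo moved with transcript length. Across 10079 genes with an annotated length (98.4% of those kept, and all 38 of the set), Spearman's rho between length and log2 difference was 0.34; these are genes of the same 6 libraries, not independent replicates. Genes called higher had a median transcript of 4430 bases and genes called lower one of 1806 bases, against 2233 bases for the 38 and 2921 for all. After each pair was corrected for transcript length, the fit called 6 of the 38 lower (6.44% of all genes) and none higher (6.25%), with 33 of 38 below 0 and a median of -0.26. The annotated transcripts of some genes consist mostly of untranslated sequence: that of Ncl has 8202 bases, of which 2121 are coding, and that of Imp4 5836, of which 873 are coding. A correction for coding length, chosen after seeing the data, called 17 of the 38 lower (12.2% of 9713 genes) and none higher (12.1%), with 34 of 38 below 0 and a median of -0.28. Wdr74, Pa2g4, Nip7 and Dkc1 were called lower in all 3 fits. Ncl was called only with the transcript-length correction (-0.39, limma adjusted p = 0.0373), and its coding-length value was -0.19 (limma adjusted p = 0.110). Imp4 was called with no correction and with transcript length but not with coding length (-0.20, limma adjusted p = 0.0776). Gnl3, Nop58, Srm and Nme1 were called with no correction and with coding length only, and Nop16 with no correction only. Tcof1 had corrected differences of 0.22 and 0.16 (limma adjusted p = 0.0885 and 0.147). The median of the cytosolic ribosomal proteins after the transcript-length correction was 0.14, opposite in sign to the uncorrected one, and of the wider list that fit called 18 lower.

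**Figure D5:**
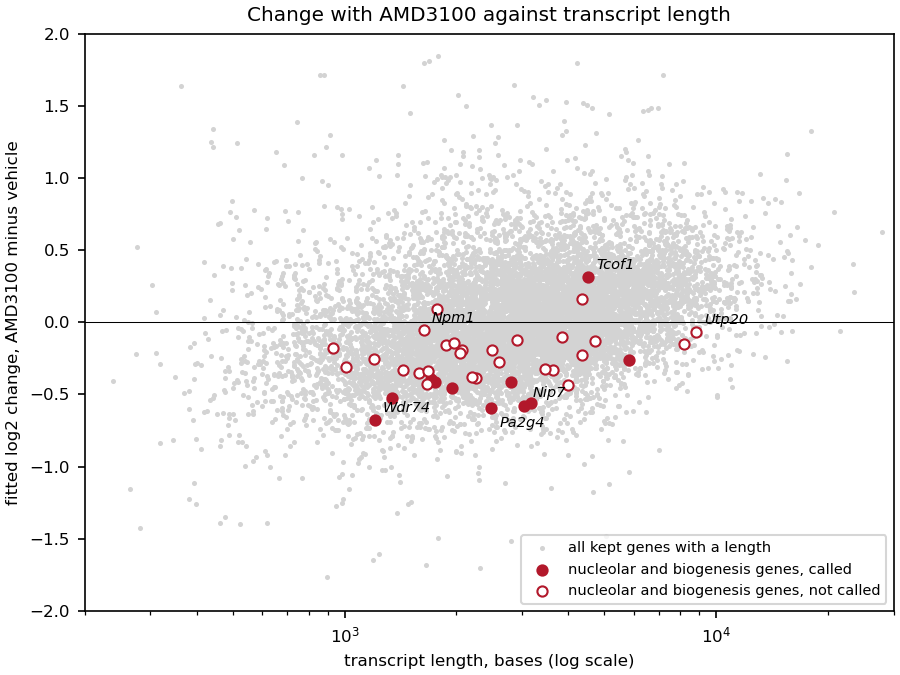
Log2 difference (AMD3100 minus vehicle) against annotated transcript length in bases on a log axis, for all genes with a length (grey) and the 38 genes, with called ones filled; 115 genes lie outside the axes. Genes called higher have a median length of 4430 bases and genes called lower 1806 bases.

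In the primary tumours, the 38 genes did not differ detectably between KO and WT. None was called by limma, and none reached an unadjusted p under 0.05, a level that 4.28% of all 10741 genes reached. The fit called 4 genes in all (0.0372%). The median log2 difference was -0.16, against -0.026 for all genes, 26 of the 38 (68.4%) lay below 0, against 52.3% of all genes, and the values ran from -0.87 for Polr1b to 0.88 for Fbl. Standard errors ran from 0.25 to 0.90 in this fit, which had no block, against 0.064 to 0.17 in the blocked ex vivo fit. Without the block the highest ex vivo standard error was 0.24, for Nme2. Differences of the size seen with AMD3100 could thus be missed here, and the power to detect them was not computed. The targeted gene, Cxcr4, measured 23.2, 78.9 and 21.9 FPKM in KO tumours 5, 7 and 8, against 241, 155 and 206 FPKM in WT tumours 1, 2 and 4 (-2.49, SE 0.51, unadjusted p = 0.00168 and adjusted p = 0.986 by limma), with no overlap. Cxcr4 was thus lower in the tumours labelled KO but not absent, KO tumour 7 lying nearest to the WT values; which part of the gene was deleted is not stated, and the source of the remaining signal was not tested. Myc measured 48.5, 80.02 and 107 FPKM in KO tumours, against 50.6, 110 and 72.8 FPKM in WT tumours (0.014, limma adjusted p = 1.00).

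Values varied widely between single tumours. WT tumour 2 held the highest of the 6 values for 19 of the 38 genes and KO tumour 8 for 12, whereas KO tumour 5 and WT tumour 1 each held the lowest for 13. The sum over the 38 genes was 1567, 1509 and 1822 FPKM in KO tumours 5, 7 and 8, against 1363, 2343 and 2046 FPKM in WT tumours 1, 2 and 4, so the groups overlapped. Without WT tumour 1 the median difference was -0.49, and over all single tumours left out it lay between -0.49 and -0.077. T cell markers summed to 1894, 4192 and 3224 FPKM in KO tumours, against 5341, 1417 and 1741 FPKM in WT tumours; WT tumour 1 thus had the highest T cell sum and WT tumour 2 the lowest, beside its high neutrophil sum. Rescaling without haemoglobin moved the median of all genes by more than 0.1, to -0.14, and that of the 38 genes to -0.29. The part of these cells in the values of the 38 genes was not tested.

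By role, all 7 abundant nucleolar proteins lay below 0 in KO tumours (52.3% of all genes did), at a median of -0.38. Of these, Ddx21 lay at -0.0051 and Tcof1 at -0.01. The median was -0.051 for the snoRNP core, -0.0022 for the small-subunit processome and 0.19 for the 4 growth enzymes, 3 of them above 0. Polymerase and exosome members had a median of -0.20 and translation factors one of -0.32. Nolc1 and Polr1b were the 2 genes of the 38 whose KO values all lay below the WT values, a count near the 5.2% of all genes. No gene of the 38 lay wholly above (4.01% of all genes did). Nolc1 measured 35.1, 36.5 and 36.2 FPKM in KO tumours, against 38.5, 83.4 and 58.4 FPKM in WT tumours (log2 difference -0.66, SE 0.33, limma adjusted p = 0.986). Polr1b measured 7.68, 5.85 and 3.33 FPKM in KO tumours, against 8.16, 14.6 and 9.94 FPKM in WT tumours (-0.87, SE 0.42, limma adjusted p = 0.986). In both, WT tumour 1 lay next to the KO values. Gnl3 measured 33.2, 14.9 and 33.8 FPKM in KO tumours, against 25.4, 67.2 and 50.0 FPKM in WT tumours (-0.76, SE 0.47). Ncl measured 123, 120.1 and 155 FPKM in KO tumours, against 136, 208 and 178 FPKM in WT tumours (-0.38, SE 0.29). Npm1 measured 63.7, 87.5 and 82.8 FPKM in KO tumours, against 84.2, 123 and 99.2 FPKM in WT tumours (-0.38, SE 0.28). The highest value of each of these 3 was in WT tumour 2. Tcof1, the gene that rose with AMD3100, measured 33.3, 59.3 and 48.5 FPKM in KO tumours, against 55.0, 37.1 and 48.1 FPKM in WT tumours (-0.01, SE 0.32).

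The large-subunit factors had a median of -0.29 in the tumours, and the groups overlapped for each of the 12. Pa2g4 had the smallest unadjusted p of the 38, 0.0672 by limma, with 103, 87.6 and 71.4 FPKM in KO tumours, against 97.6, 182 and 158 FPKM in WT tumours (log2 difference -0.70, SE 0.33). Here WT tumour 1 lay within the KO range. Wdr74 measured 11.1, 17.7 and 33.8 FPKM in KO tumours, against 16.8, 32.5 and 17.4 FPKM in WT tumours (-0.16, SE 0.47). Nip7 measured 3.77, 11.2 and 7.88 FPKM in KO tumours, against 7.91, 8.90 and 6.22 FPKM in WT tumours (-0.10, SE 0.44). Nop16 measured 10.0, 7.00 and 11.9 FPKM in KO tumours, against 10.2, 16.7 and 12.3 FPKM in WT tumours (-0.41, SE 0.35). KO tumour 8 held the highest Wdr74 value and KO tumour 7 the highest Nip7 value of the 6.

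The snoRNP proteins split in the tumours. Nop58 measured 89.0, 66.6 and 58.3 FPKM in KO tumours, against 71.8, 126 and 106 FPKM in WT tumours (log2 difference -0.48, SE 0.32). Dkc1 measured 46.9, 37.5 and 28.5 FPKM in KO tumours, against 35.0, 57.6 and 48.4 FPKM in WT tumours (-0.31, SE 0.32). Nop56 measured 51.4, 42.0 and 74.5 FPKM in KO tumours, against 36.6, 57.1 and 49.4 FPKM in WT tumours (0.21, SE 0.32). Nop56 thus had the opposite sign to Nop58, with all 3 overlapping between groups. Fbl was listed at 1.29, 2.17 and 4.62 FPKM in KO tumours, against 0, 0.863 and 2.54 FPKM in WT tumours. Why Fbl was listed at 0 in WT tumour 1 was not tested.

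Odc1 was the most variable gene among the tumours, over a range of 3.40 log2 units. It measured 148, 37.5 and 59.8 FPKM in KO tumours, against 13.1, 91.5 and 144 FPKM in WT tumours (log2 difference 0.29, SE 0.90). Its highest values, in KO tumour 5 and WT tumour 4, fell in the 2 tumours with the most haemoglobin RNA, and the lowest in WT tumour 1, which had the least; the part of red-cell RNA in this was not tested. Srm measured 26.8, 20.6 and 61.3 FPKM in KO tumours, against 19.2, 51.0 and 28.2 FPKM in WT tumours (0.096, SE 0.51). Nme1 measured 42.3, 58.3 and 85.3 FPKM in KO tumours, against 54.9, 67.5 and 73.3 FPKM in WT tumours (-0.12, SE 0.33). Nme2 measured 25.8, 57.7 and 80.5 FPKM in KO tumours, against 54.7, 23.3 and 31.6 FPKM in WT tumours (0.51, SE 0.50). In all 4 enzymes the groups overlapped. Eif5a measured 351, 268 and 380.3 FPKM in KO tumours, against 237, 471 and 449.6 FPKM in WT tumours (-0.16, SE 0.37). Eif4a1 measured 25.1, 24.8 and 38.9 FPKM in KO tumours, against 32.4, 46.8 and 44.8 FPKM in WT tumours (-0.48, SE 0.31). The other 18 genes lay between -0.63 for Ddx18 and 0.49 for Rrp12.

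Of the wider list, none of 126 was called in the tumours, 1 (Ruvbl1) had an unadjusted p under 0.05, 90 (71.4%) lay below 0 (52.3% of all genes did), and the median was -0.17. Of the 126, 9 lay lower without overlap, near the 5.2% of all genes, and none higher (4.01%). Ruvbl1, an ATPase that assembles snoRNPs, measured 4.62, 6.72 and 1.42 FPKM in KO tumours, against 12, 10.9 and 10.9 FPKM in WT tumours (log2 difference -1.37, SE 0.49, unadjusted p = 0.0260 and adjusted p = 0.986 by limma). Ruvbl1 also fell with AMD3100, at 12.9, 13.2 and 11.2 FPKM against 17.0, 18.6 and 15.3 FPKM with vehicle (-0.42, limma adjusted p = 0.0295). The next smallest p-values belonged to Nop14, Rrp1, Nhp2l1 and Ftsj3, at -0.77, -0.50, -1.02 and -0.71 in the tumours. Ex vivo, Rrp1, Nhp2l1 and Ftsj3 fell (-0.38, -0.48 and -0.42) and Nop14 was not called (-0.24, limma adjusted p = 0.0620). Of the whole list 30 of 126 fell ex vivo, and of all genes 9.92%. Whether the 2 comparisons share genes beyond these shares was not tested. Of the cytosolic ribosomal proteins 0 of 65 were called in the tumours, at a median of 0.28, and of the mitochondrial ones 0 of 72, at -0.16. Of the 10 genes that fell with AMD3100, 9 lay below 0 in KO tumours, where 68.4% of the 38 and 52.3% of all genes did, and 1, Srm, above, with values between -0.76 and 0.096, none of which passed the test. An antagonist and a deletion are different treatments, and the 2 tables were made separately, so the sizes were not compared further.

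Some of the genes have a further feature that their choice did not use. In the GENCODE M21 annotation, 9 of the 38 (23.7%) carry snoRNA genes within their own transcript span, against 1.25% of 18902 protein-coding genes. Those 18902 were not limited to genes that passed the filter, and the share was not computed for other lists. The 9 hosts were Nop56 with 5, Nop58 with 4, Ncl, Gnl3, Wdr43 and Eif4a1 with 3 each, Ppan with 2, and Dkc1 and Odc1 with 1 each. The hosts had a median log2 difference of -0.38 ex vivo, with 3 of 9 called lower and a range of -0.45 to 0.093. The other 29 had a median of -0.26, with 7 lower and 1 higher. Of all genes, 9.92% were called lower and 9.96% higher, and this split was not tested. Of the 25 hosted snoRNAs, 10 were rows of the tables by symbol. Of these, 5 passed the filter ex vivo and 2 among the tumours, and none was called. Most of their values were 0: Snord11, in Nop58, was above 0 in 1 of 6 ex vivo samples, at 1129 FPKM, and Snord57, in Nop56, in 2, with a highest value of 1320 FPKM. Rows named as snoRNAs made up 67 of the 10245 genes that passed ex vivo and 35 of the 10741 that passed in the tumour table.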

How the data were processed

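The 2 tables of FPKM values, 1 for the 6 ex vivo samples and 1 for the 6 primary tumours, were used as the authors deposited them. The submitters' processing notes name CASAVA, TopHat and the mouse build mm9. The program and annotation behind the FPKM values, all versions and whether counting used strand: not given in the sources used here, and read depth is unknown. The FPKM of a library summed to between 444803 and 480468 in the ex vivo table and between 368118 and 581159 in the tumour table.

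Each table was fitted alone with limma 3.58.1 (R 4.3.3) on log2(FPKM + 1), over genes averaging at least 1 FPKM, with a mean trend, two-sided, and Benjamini-Hochberg adjustment over all genes kept. A call is an adjusted p under 0.05. The ex vivo fit had the replicate number as a block, from the numbers in the sample titles; same-numbered samples correlated at r = 0.467, 0.579 and 0.619 in their deviations from the group means, and differently numbered ones at -0.473 to 0.0455, against a limit of 0.1. KO and WT share no numbers. The fit was also run on simulated data, and no result of that run is given or used here.

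Transcript lengths, shared 50-base windows and snoRNA hosts came from GENCODE M21, and promoters from RefSeq. The members, the wider list, the ribosomal protein lists, the markers and the tests were chosen with earlier results of these data known. Full values are given for the 8 genes with the smallest ex vivo p, the 6 with the smallest tumour p, and Ncl, Npm1, Fbl, Nop56, Nop58, Dkc1, Polr1b, Eif5a, Odc1, Srm, Nme1 and Nme2, 20 in all; of the wider list, the 5 genes with the smallest p in each table are named. Alternatives covered the pseudocount, filter, scaling (median of ratios, trimmed mean of M values (TMM), quantile), trend, threshold, block, length and each sample; a correction for coding length was added after seeing the data.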

Additional observations from a re-analysis of the deposited data

How the results depend on the processing

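Ex vivo, the fit with the replicate block called 10 of the 38 genes lower. It called 6 with a filter at 0.1 FPKM, 5 with no filter, 6 with quantile normalisation, 3 without the mean trend, 21 at an adjusted p under 0.10, 6 with the replicate block and length correction, 17 with a coding length correction (chosen after seeing the data), and 0 with no replicate block. Leaving out a pair gave 0 to 2 lower. The 1 higher call became 0 with no filter, without the trend, with either length correction, with no replicate block, and (0 to 0) with any pair left out. Of the wider list 30 were lower, against 14 with no filter, 9 without the trend, 52 at 0.10, 18 with length correction, 0 with no replicate block and 0 to 4 with a pair left out; none was higher, against 2 with a filter at 5 FPKM, 1 each with median-of-ratios and quantile scaling and with coding length, and 4 at 0.10. Over all genes 1016 were lower and 1020 higher, against 564 and 510 with no filter, 481 and 608 without the trend, 1708 and 1747 at 0.10, 649 and 630 with length correction, 8 and 5 with no replicate block, and 1 to 288 and 3 to 271 with a pair left out. Leaving out a pair leaves fewer samples; for the other settings the cause was not tested. The median of the 38 stayed negative under each of these settings (-0.33 to -0.19 with a pair left out), with 33 to 35 of 38 below 0 where all 38 were tested. Npm1 changed sign with quantile normalisation (0.12), with transcript or coding length correction (0.066 and 0.0011), and without replicate 2 or 3 (-0.19 to 0.013 over single pairs left out). In the tumours none of the 38 or of the wider list was called under any setting. Of all genes, 2 were lower and 2 higher, against 1 higher with a pseudocount of 0.1, 1 higher with a filter at 5 FPKM, 0 and 0 with no filter, and 0 to 2 lower and 0 to 0 higher with a tumour left out. The median of the 38 was -0.49 without WT tumour 1 (-0.49 to -0.077 over single tumours). Among the genes with full values, 8 changed sign with a single tumour left out, over ranges of -0.19 to 0.21 for Tcof1, -0.56 to 0.20 for Wdr74, -0.40 to 0.28 for Nip7, -0.38 to 0.12 for Nme1, -0.72 to 0.96 for Odc1, -0.35 to 0.46 for Srm, -0.013 to 0.39 for Nop56 and -0.48 to 0.013 for Eif5a. Tcof1 also did with quantile normalisation (0.0064) and Srm when rescaled without haemoglobin genes (-0.029). With 3 samples a group and FPKM in place of counts, counting error could not be separated from other spread.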
